A study of Homo sapiens with 6 samples.

Results

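The chaperonins are barrel-shaped protein folding machines, and 10 of their genes were followed in Het1A cells after brief daily exposures to acidic medium with bile acids. They were the 8 subunit genes of the cytosolic chaperonin TRiC (TCP1, CCT2, CCT3, CCT4, CCT5, CCT6A, CCT7 and CCT8) and the mitochondrial pair HSPD1 (Hsp60) and HSPE1 (Hsp10). Their rows were taken by gene name from a count table of 58735 genes. All 10 were found once and all 10 passed the filter on low counts. Het1A is a human oesophageal epithelial line, immortalised with the SV40 large T antigen. In 3 bile acid libraries the cells had met medium at pH 4.0 with 100 µM of 5 mixed bile acids for 10 min a day over 5 days, and in 3 control libraries they had met 0.1% DMSO. Cells of both groups were starved in 1% serum for 48 h beforehand, and were harvested 24 h after the final exposure. No label gives a pH for the control medium, so an effect of acid and one of bile acids cannot be told apart. They call the libraries biological replicates without saying how the cultures were separated, so p-values measure the spread between these libraries.

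TRiC is a pair of stacked rings, each built from 8 different subunits, that encloses newly made proteins and folds them with the energy of ATP. Actin and tubulin depend on it, as do several regulators of the cell cycle. Hsp60 does the same work in the mitochondrial matrix, where Hsp10 is its lid, and both are nuclear genes whose products are imported. In bulk RNA, fewer cells that make a transcript and less of it per cell cannot be told apart.

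HSPD1 and HSPE1 lie head to head on chromosome 2, and their promoter windows are shown because the pair is known to share the promoter between them, along with a second HSPD1 window. RefSeq windows (GRCh38.p14, 250 bases before to 50 after a transcript start, printed 5′ to 3′ on the strand of the gene) were found for 9 of the 10 genes, 12 windows in all. A start of HSPE1 lies 105 bases from one start of HSPD1, and the windows of these 2 starts share 204 bases. The downstream start of HSPD1 lies 539 bases from that of HSPE1, and its window shares 0 bases with the HSPE1 window. Capitals mark TTCNNGAA or GAANNTTC, the paired 3-base units that heat shock factor binds. Both motifs read the same on either strand, and copies that overlap run on as 1 stretch. The HSPE1 window and that of the upstream HSPD1 start are set beside the windows of HSPD1, CCT4 and TCP1 that hold a match.
HSPD1, downstream start, chr2:197499791-197500090, minus strand: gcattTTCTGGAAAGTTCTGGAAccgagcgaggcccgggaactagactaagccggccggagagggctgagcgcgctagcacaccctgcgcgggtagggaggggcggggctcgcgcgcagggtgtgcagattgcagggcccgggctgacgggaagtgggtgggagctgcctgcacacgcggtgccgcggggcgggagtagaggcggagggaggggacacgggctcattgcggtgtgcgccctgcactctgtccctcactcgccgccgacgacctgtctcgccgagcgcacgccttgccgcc
HSPD1, upstream start, chr2:197500225-197500524, minus strand: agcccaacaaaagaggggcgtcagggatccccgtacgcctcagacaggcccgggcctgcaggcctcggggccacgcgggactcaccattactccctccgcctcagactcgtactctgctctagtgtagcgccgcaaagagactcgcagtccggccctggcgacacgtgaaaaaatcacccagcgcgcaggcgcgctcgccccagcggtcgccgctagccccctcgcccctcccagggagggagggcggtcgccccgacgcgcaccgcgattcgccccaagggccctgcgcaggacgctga
HSPE1, chr2:197500129-197500428, plus strand: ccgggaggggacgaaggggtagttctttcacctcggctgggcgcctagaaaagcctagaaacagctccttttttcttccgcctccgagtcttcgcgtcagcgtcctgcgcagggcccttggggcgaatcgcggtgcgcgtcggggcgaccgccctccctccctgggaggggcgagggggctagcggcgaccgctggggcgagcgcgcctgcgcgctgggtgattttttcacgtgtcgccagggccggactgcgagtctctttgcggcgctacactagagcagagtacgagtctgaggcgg
CCT4, chr2:61888607-61888906, minus strand: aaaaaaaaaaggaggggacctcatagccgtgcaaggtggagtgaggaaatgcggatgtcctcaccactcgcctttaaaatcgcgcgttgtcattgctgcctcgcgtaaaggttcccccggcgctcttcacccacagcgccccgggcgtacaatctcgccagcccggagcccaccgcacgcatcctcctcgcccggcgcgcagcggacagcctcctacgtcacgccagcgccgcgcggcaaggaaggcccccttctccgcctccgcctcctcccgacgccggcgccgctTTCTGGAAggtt
TCP1, chr6:159789553-159789852, minus strand: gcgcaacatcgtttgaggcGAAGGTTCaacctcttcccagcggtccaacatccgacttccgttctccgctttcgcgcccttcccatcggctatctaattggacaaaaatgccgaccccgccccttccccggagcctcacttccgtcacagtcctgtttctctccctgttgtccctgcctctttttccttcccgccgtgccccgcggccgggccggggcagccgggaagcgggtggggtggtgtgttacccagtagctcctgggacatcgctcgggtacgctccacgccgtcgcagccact
The downstream HSPD1 window holds 3 overlapping matches in a row, the first 245 bases before its start. Neighbouring matches share 3 bases, so the run contains the form with 3 units in a row and is longer than that form. Of 35116 promoter windows of this length, 13.5% hold the 2-unit motif and 0.490% the 3-unit form. Of the 2 windows of CCT4, 1 has a match at base 39 after its start, TCP1 has 1 at base 231 before it, and 1 of the 2 windows of CCT2 has 1 at base 89 before its start. The windows of CCT3, CCT5, CCT7, CCT8 and HSPE1, and that of the upstream start of HSPD1, hold no such letters. The 3 HSPD1 matches (chr2:197500068-197500085) lie between the downstream start of HSPD1 (197499840) and the start of HSPE1 (197500379). They fall just outside the HSPE1 window, which begins at 197500129, so the lack of a match for HSPE1 holds for its window alone. A match describes the sequence and shows no binding.

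Total counts were 27008714 to 28497721 in the bile acid libraries and 21006677 to 26218597 in the control libraries, and 3 counts correspond to 0.105 to 0.143 CPM, the counts of a gene scaled to the total of its library. That floor covers counting error alone, and the levels of single genes are CPM with TMM factors applied. Control library 2 stood apart over all genes, with a Pearson correlation of log2 CPM of 0.890 to 0.928 with each other library, where all other pairs lay at 0.974 to 0.986 (across genes, which are not independent replicates). It had 19101 genes with a count, against 24174 to 25337 in the other libraries, and the lowest TMM factor, 0.851. The fold changes of the chaperonins and of the other genes named are therefore also given without it, and the part of library quality in them was not tested. Of 12 squamous epithelial markers 6 were tested, with a summed level of 151 to 333 CPM in bile acid and 176 to 310.1 CPM in control libraries. KRT17 (45.98 to 143 CPM), EPCAM (37.86 to 74.7 CPM) and DSP (17.3 to 93.08 CPM) made up most of the squamous sum. KRT13 and KRT4 were at 0 throughout, and KRT5, KRT14, KRT15 and TP63 reached at most 0.511 CPM in any library. Fibroblast markers summed to 192 to 322 CPM in bile acid and 166 to 299 CPM in control libraries, leukocyte markers to 12.9 to 16.8 CPM and 9.93 to 13.0 CPM, and endothelial markers to 1.07 to 1.95 CPM and 0.336 to 2.12 CPM. Most of the fibroblast sum came from COL1A1 (42.7 to 231 CPM), THY1 (73.8 to 179 CPM) and PDGFRB (9.13 to 23.5 CPM). Of the same list, COL3A1 was at 0 throughout, and COL1A2, DCN and LUM reached at most 0.464 CPM in any library.

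With all 6 libraries no chaperonin gene passed the test, and without control 2 all 10 had a positive log2 fold change. The quasi-likelihood test of edgeR called 0 of the 10, and 0 of 17743 genes over the whole table, a background of 0%. At an unadjusted p under 0.05 it had 588 genes (3.31%), 1 of them a chaperonin. DESeq2 called 0 of the 10 against a background of 0.118% (19 genes), and limma-voom called 0 genes, with 528 at an unadjusted p under 0.05. Of the 10 log2 fold changes 7 were positive, against 48.8% of all genes. Without control 2 all 10 were positive, against 50.8% of all genes. Every bile acid library then lay above both remaining controls for each of the 10 genes, a pattern seen in 12.1% of all genes.

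**Figure D1:**
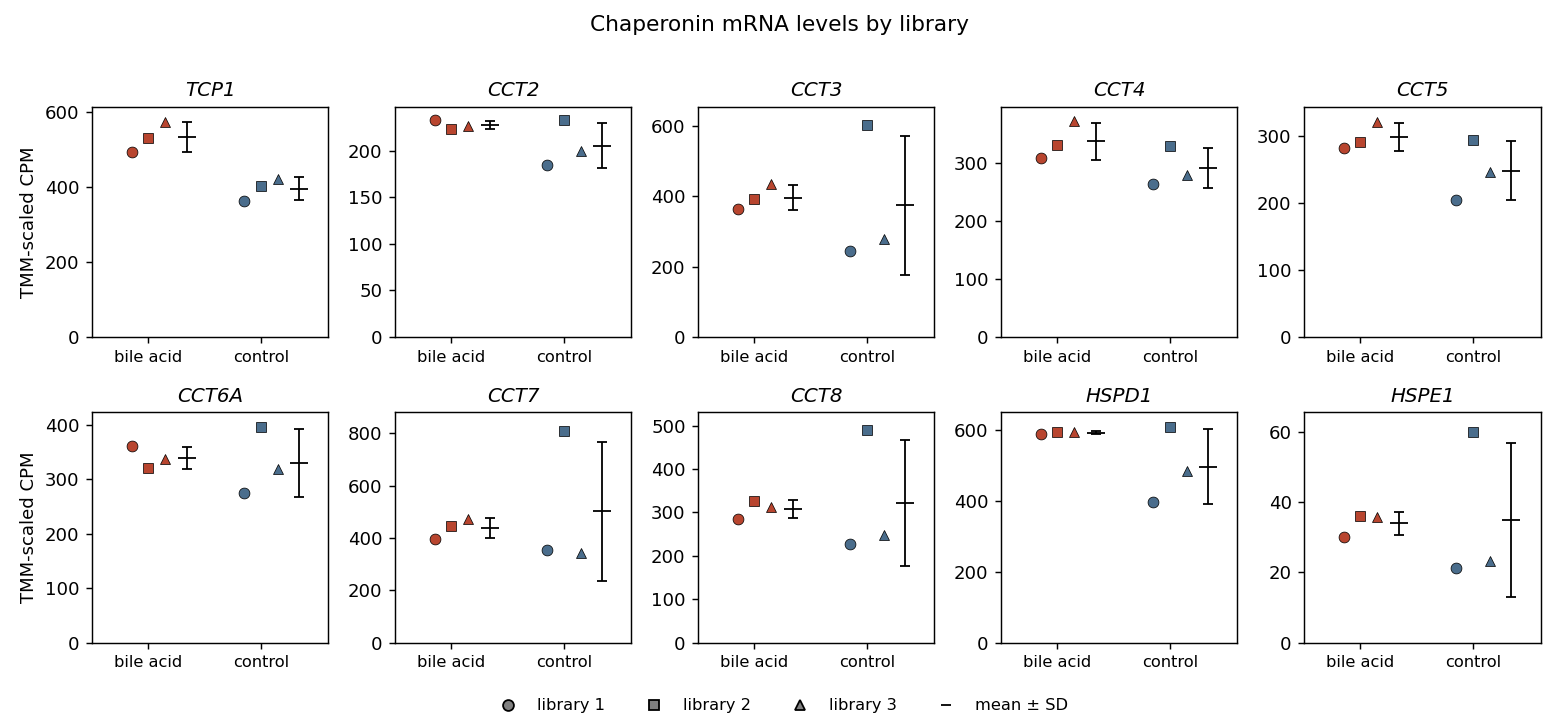
TMM-scaled CPM (y axis, from 0) of the 10 chaperonin genes in 3 bile acid and 3 control libraries, with the mean and SD beside the points and the marker shape giving the library number. In CCT3, CCT7, CCT8 and HSPE1 control library 2 (square) lies far above the other controls and above every bile acid library, while in TCP1 all bile acid libraries lie above all controls.

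TCP1, the subunit that gave the complex its name (CCT1 or alpha), was the only member whose groups did not overlap, where 5.29% of all genes had every bile acid library above every control. No member had every bile acid library below every control, as 4.89% of all genes did. It measured 493, 530.2 and 574 CPM in bile acid libraries 1 to 3, against 363, 401 and 422 CPM in control libraries 1 to 3. Its log2 fold change was 0.43 (SE 0.18, 95% interval 0.01 to 0.85, edgeR adjusted p = 0.911), and 0.45 (SE 0.15) without control 2. Control 2 lay between the other controls for this gene. The TCP1 gene (ENSG00000120438, chromosome 6, 159778498 to 159789749, minus strand, GRCh38) shares 8.05% of its exonic bases with ACAT2, a cholesterol and acetyl-CoA enzyme gene on the opposite strand. ACAT2 drew 35627 counts in all, and 13.4% of the 75-base stretches of the longest coding TCP1 transcript also occur in it, counting both strands. The sources used here do not give the strand setting of the counting, and the part of this overlap in the TCP1 values was not tested.

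CCT4 (delta) and CCT5 (epsilon) had 2 controls below every bile acid library and 1 within their range. CCT4 measured 309, 330.3 and 371 CPM in bile acid libraries, against 262, 329 and 279 CPM in control libraries. CCT5 measured 282, 291 and 321 CPM against 205, 294 and 246 CPM. In both genes control 2 reached the bile acid range and the other controls stayed below it. The log2 fold changes were 0.22 (95% interval -0.22 to 0.65) for CCT4 and 0.26 (95% interval -0.21 to 0.73) for CCT5. Without control 2 they were 0.33 (95% interval 0.01 to 0.64) and 0.41 (95% interval 0.09 to 0.73). Of the exonic bases of CCT5, 30.1% lie under an antisense gene with 5 counts in all, and of those of CCT4 12.6% lie under genes of the opposite strand.

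CCT2 (beta) and CCT6A (zeta) had the smallest log2 fold changes once control 2 was left out. CCT2 measured 233, 224 and 227 CPM in bile acid libraries, against 184, 233 and 200.1 CPM in control libraries. CCT6A measured 361, 321 and 337 CPM against 275, 397 and 319 CPM. For CCT2 control 2 lay among the bile acid libraries, and for CCT6A it lay above them all. Their log2 fold changes were 0.15 (95% interval -0.26 to 0.56) and 0.04 (95% interval -0.43 to 0.52). Without control 2 they were 0.26 and 0.20, the smallest of the 10, and both intervals still included 0.

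CCT3 (gamma), CCT7 (eta) and CCT8 (theta) had a control library 2 far above the other controls. CCT3 measured 362, 391 and 433 CPM in bile acid libraries, against 245, 602 and 277 CPM in control libraries. CCT7 measured 396, 446 and 473 CPM against 353, 809 and 343 CPM, and CCT8 measured 285, 325 and 313 CPM against 227, 489 and 248 CPM. Control 2 was the highest of all 6 libraries for each, and the bile acid libraries lay between it and the other controls. The log2 fold changes were 0.08 for CCT3 (95% interval -0.75 to 0.91), -0.19 for CCT7 (95% interval -1.03 to 0.64) and -0.06 for CCT8 (95% interval -0.80 to 0.67). Without control 2 they were 0.61 (SE 0.15), 0.34 (SE 0.14) and 0.38 (SE 0.14), so that CCT7 and CCT8 had the opposite sign. CCT3 was then the only chaperonin that DESeq2 called (adjusted p = 0.0141), among 0.924% of genes called higher, while edgeR gave it an adjusted p of 0.312 and called 1 gene in all (0.00547%), the metallothionein MT2A, named after its values were seen.

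HSPD1 and HSPE1 both lay higher in every bile acid library than in controls 1 and 3. HSPD1, the Hsp60 barrel (ENSG00000144381, chromosome 2, 197486581 to 197516737, minus strand), measured 588, 595 and 594 CPM in bile acid libraries, against 397, 607 and 485 CPM in control libraries. HSPE1, the Hsp10 lid (ENSG00000115541, chromosome 2, 197499994 to 197503457, plus strand), measured 30.1, 36.1 and 35.7 CPM against 21.3, 60.1 and 23.3 CPM. The bile acid libraries of HSPD1 differed by an SD of 3.64 CPM around 593 CPM, against an SD of 106 CPM around 496 CPM in control libraries. Control 2 was the highest of the 6 libraries for both. The log2 fold changes were 0.26 (SE 0.21) for HSPD1 and -0.04 (SE 0.40) for HSPE1 with all libraries, and 0.44 (SE 0.15) and 0.62 (SE 0.16) without control 2, where DESeq2 gave adjusted p = 0.192 and adjusted p = 0.0687.

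**Figure D2:**
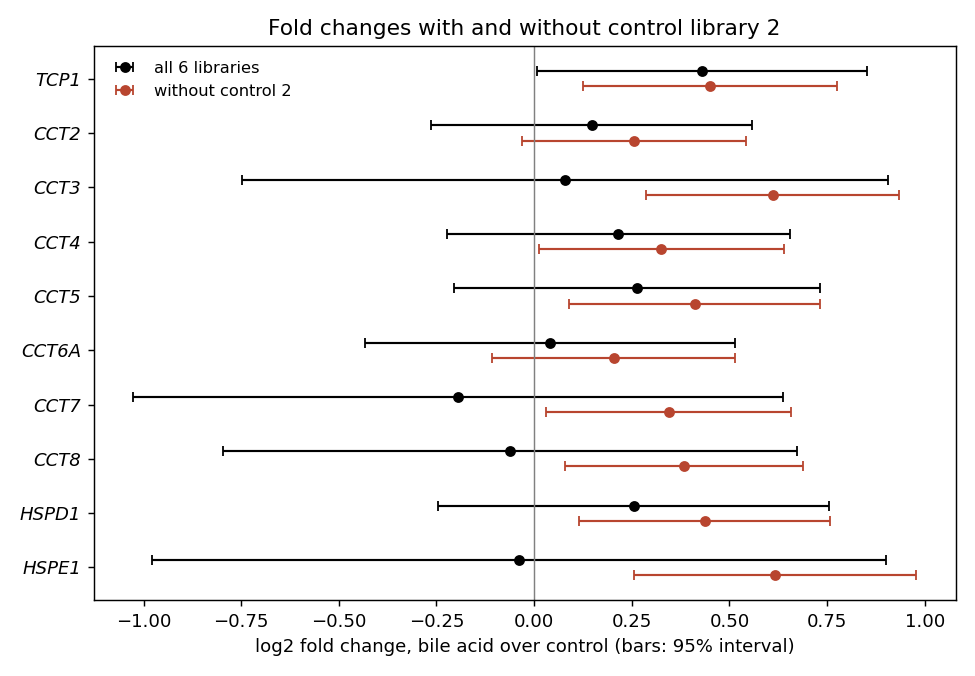
Log2 fold change of each chaperonin gene, bile acid over control (x axis), with its 95% interval from edgeR, with all 6 libraries (black) and without control library 2 (red). With all libraries 9 of 10 intervals include 0, and without control 2 all 10 values are positive and 8 of 10 intervals lie above 0.

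Over the 8 TRiC subunits, the median log2 fold change was 0.11, against -0.01 over all genes tested, and without control 2 it was 0.36, against 0.00 over all genes. For the mitochondrial pair the medians were 0.11 and 0.53. Relative to the mean of each gene over all libraries, the median TRiC subunit stood at 0.02, 0.09 and 0.15 log2 units in bile acid libraries 1 to 3, against -0.34, 0.19 and -0.15 in control libraries 1 to 3. At an unadjusted p under 0.05, 8 of the 10 members were higher without control 2, where 5.02% of all genes were. Subunits of one complex are not independent replicates of the treatment, and 3 against 2 libraries remain in that comparison. The authors' deposited table gave log2 fold changes of 0.45 for TCP1, 0.28 for HSPD1 and -0.17 for CCT7, the highest, the third highest and the lowest of the 10. Its adjusted p-values for the 10 were 0.977 to 0.999, in a table with 0.129% of genes called.

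The excess of control 2 over the other controls differed between the chaperonin genes. Its log2 CPM exceeded the mean of controls 1 and 3 by 1.43 for HSPE1, 1.22 for CCT7, 1.21 for CCT3 and 1.04 for CCT8. The other 6 genes ranged from 0.04 for TCP1 to 0.47 for HSPD1. The 4 genes with the largest excess have the 4 shortest longest-coding transcripts, 950 bases for HSPE1, 2005 for CCT8, 2031 for CCT7 and 2150 for CCT3, and CCT2 at 2189 bases follows with an excess of 0.28. By exonic length, which counts every annotated exon, the order differs: CCT4, at 2830 bases, is shorter than CCT8 (3341), CCT7 (3591) and CCT3 (4018) and had an excess of 0.28, and CCT6A (3901) is shorter than CCT3. Across all 12081 genes averaging 5 CPM or more, the same difference was larger for genes of shorter exonic length (Spearman rho of -0.50, a description across genes). Genes of a like exonic length (within 0.25 log2 units) had a median of 0.80 beside HSPE1, 0.29 beside CCT8, 0.19 beside CCT7 and 0.10 beside CCT3, all smaller than the value of the chaperonin itself. Of the other 6 chaperonins, CCT4 lay below the median of its like-length genes (0.28 against 0.42), and the rest lay above theirs. With the length trend removed from every library, and all libraries kept, the log2 fold changes were 0.23 for HSPE1, 0.03 for CCT8, -0.13 for CCT7 and 0.10 for CCT3.

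**Figure D3:**
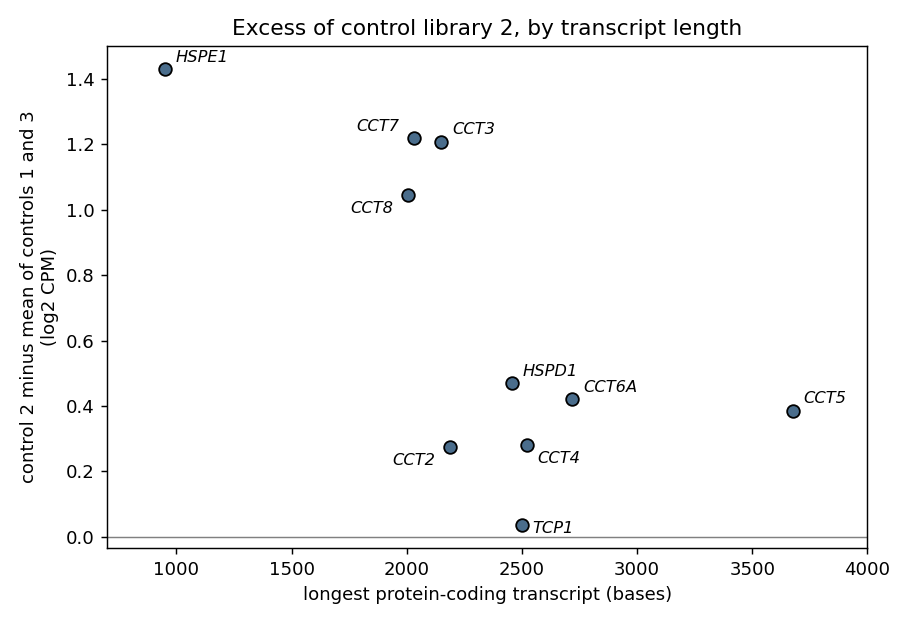
Difference in log2 CPM between control library 2 and the mean of control libraries 1 and 3 (y axis) for the 10 chaperonin genes, against the length in bases of the longest protein-coding transcript in GENCODE 29 (x axis). HSPE1, CCT7, CCT3 and CCT8 lie above 1, and the other 6 genes lie between 0.04 and 0.47.

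Per length, the members differed more from each other than between the groups. On the FPKM scale, which the authors deposited and which divides by library size and exonic length, HSPD1 had 119 ± 0.934 in bile acid libraries and 101 ± 20.0 in control libraries (mean ± SD, n = 3 each). In bile acid libraries it was the highest, followed by CCT7 (104 ± 9.50 FPKM), CCT4 (101 ± 9.84), TCP1 (92.0 ± 7.20), CCT3 (83.9 ± 7.77), CCT8 (78.5 ± 5.42) and CCT6A (74.2 ± 4.35). Neighbours in this run from CCT7 to CCT6A had overlapping ranges, while HSPD1 lay above CCT7 in every pair of libraries. CCT2 (44.9 ± 0.892) and CCT5 (43.5 ± 3.13) overlapped each other and stood below the rest of TRiC. In control libraries the order of means was CCT7 (120 ± 61.9 FPKM), HSPD1, CCT4 (88.7 ± 9.18), CCT8 (82.9 ± 36.2), CCT3 (80.3 ± 40.96), CCT6A (73.2 ± 12.6), TCP1 (69.4 ± 5.14), CCT2 (41.2 ± 4.29) and CCT5 (36.8 ± 6.04). The ranges of neighbours overlapped from CCT7 to TCP1, and so did those of CCT2 and CCT5. This order rested on control 2, with 192 FPKM for CCT7, 125 for CCT8 and 127 for CCT3. In controls 1 and 3 CCT8 had 59.4 and 64.7 FPKM and CCT3 53.3 and 60.1 FPKM, below TCP1 at 64.4 and 74.7 FPKM in the same library order. HSPD1 had 81.9 and 99.5 FPKM there and CCT7 85.9 and 83.2 FPKM. The length counts every annotated exon, so these levels also depend on the annotation of each gene.

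The TRiC subunits kept similar proportions in 5 of the 6 libraries. CCT7 made up 16.0%, 17.1% and 17.0% of the summed TRiC FPKM in bile acid libraries 1 to 3, against 18.1%, 24.4% and 16.1% in control libraries 1 to 3. TCP1 made up at least 14.5% in each bile acid library, against 13.6%, 8.80% and 14.4% in the controls. The coefficient of variation over the 8 subunits was 27.2% to 32.0% in bile acid libraries and 32.2%, 50.2% and 28.2% in control libraries 1 to 3. Shares add up to 100%, so a gain of one subunit lowers the others. The sum itself was 586, 619 and 662 FPKM in bile acid libraries, against 474, 787 and 517 FPKM in control libraries, and the bile acid values lay between control 2 and the other controls.

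**Figure D4:**
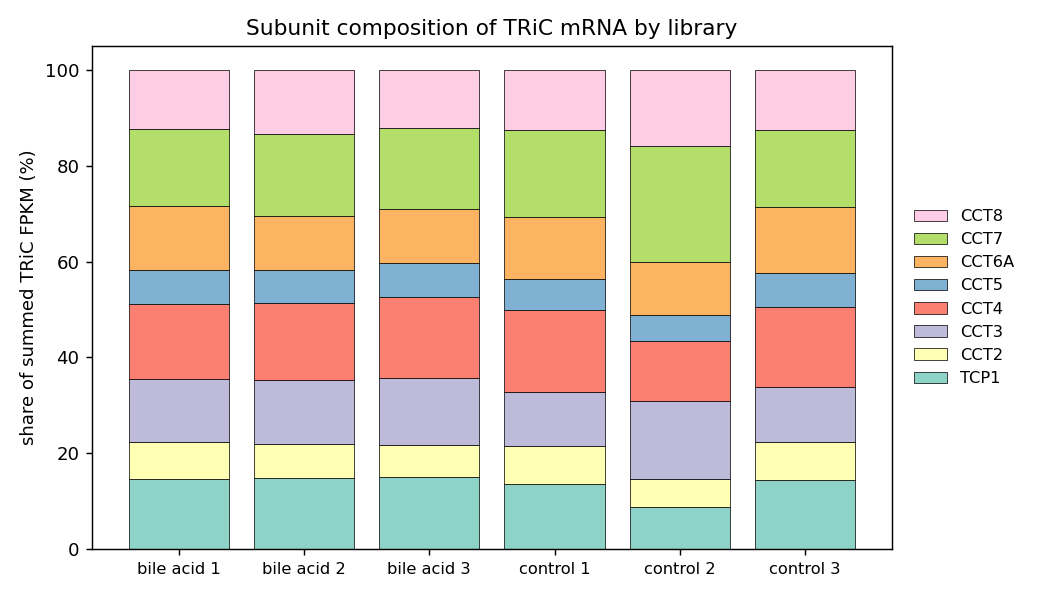
Share in percent of each TRiC subunit in the summed TRiC FPKM (y axis, stacked bars) in bile acid libraries 1 to 3 and control libraries 1 to 3. The bars of 5 libraries look alike, and in control 2 CCT7 (24.4%), CCT3 (16.2%) and CCT8 (15.8%) are wider than in any other library and TCP1 (8.80%) is narrower.

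HSPE1 stood far below its partner, at 14.6 ± 1.47 FPKM in bile acid and 15.2 ± 9.27 FPKM in control libraries. The ratio of HSPD1 to HSPE1 in FPKM was 9.11, 7.68 and 7.75 in bile acid libraries 1 to 3, against 8.68, 4.70 and 9.70 in control libraries 1 to 3. Part of the HSPE1 transcript cannot be told from other genes by sequence. Of its stretches of 75 bases 43.9% also occur in transcripts of 5 other genes, counting both strands, and 14.2% of its exonic bases lie under exons of HSPD1 and 9.71% under those of HSPE1-MOB4, a readthrough gene listed with 0 counts. The 27 listed copies of HSPE1, pseudogenes and the readthrough gene, drew 0.652% to 2.38% as many counts as HSPE1 itself per library. The 17 pseudogenes of HSPD1 drew 1.13% to 1.92%. The sources used here do not say how reads that fit several genes were counted, so the level of HSPE1 is uncertain, and the part of shared sequence in it was not tested. The share was larger still for CCT5, at 47.5%. The antisense gene AC012640.4, with 5 counts in all, held 46.8% of the CCT5 stretches. For CCT2, CCT3 and CCT7 no stretch of 75 bases occurred in another gene.

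The cofactors of TRiC had medians below 0 with all libraries and near 0 without control 2. None of the gene lists had a member called by edgeR with all libraries. Prefoldin, the complex that hands unfolded actin and tubulin to TRiC, had 0 of 6 subunits positive and a median log2 fold change of -0.62, and without control 2 the median was -0.05 with 2 of 6 positive. PFDN5 had the lowest value of them, -0.87, at 97.9, 167 and 124 CPM in bile acid libraries against 105, 503 and 102 CPM in control libraries, and PFDN1 the highest, -0.17. Without control 2 this order was the opposite, with PFDN5 highest at 0.34 and PFDN1 lowest at -0.13. The phosducin-like cofactors, which help TRiC fold G protein and other clients, had a median of -0.27 over 3 genes and 0.04 without control 2, from -0.33 for TXNDC9 (-0.05 without control 2) to -0.07 for PDCL (0.04 without it). Of the chaperonin-like genes, MKKS and BBS12, which act in assembly of the ciliary BBSome, had values of -0.46 and -0.03, the lowest and the highest of 4 tested, and of 0.05 and -0.23 without control 2, where their order was the opposite. In the same list, the testis-enriched zeta subunit CCT6B measured 2.78, 1.76 and 1.29 CPM in bile acid libraries against 1.37, 3.42 and 1.32 CPM in control libraries, with a log2 fold change of -0.06, and 0.54 without control 2. The median of these 4 was -0.06, and -0.09 without control 2. CCT8L2 had 0 counts in every library.

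Among the proteins that TRiC folds, actins and tubulins had positive medians and the other clients did not with all libraries. Actins and tubulins had a median log2 fold change of 0.38 over 13 genes, 11 of them positive, and 0.46 without control 2. TUBA1C, an alpha-tubulin, had the highest value, 0.88 (SE 0.24) and 0.70 without control 2, at 242, 203 and 245 CPM in bile acid libraries against 145, 89.8 and 141 CPM in control libraries, and TUBB2A, a beta-tubulin, the lowest, -0.05 and 0.05 without control 2. Without control 2 DESeq2 called 5 of the 13 higher and 0 lower, where 0.924% of all genes were called higher. They were TUBA1C, TUBA4A, TUBB4B and the 2 cytoplasmic actins ACTB and ACTG1, named after their values were seen. Other clients, such as regulators of mitosis, had a median of -0.15 over 12 genes and 0.03 without control 2, from -0.66 for CCNE1 (0.08 without control 2) to 0.32 for PLK1 (0.28 without it). The cofactors that assemble tubulin dimers after TRiC had a median of -0.11 over 6 genes and 0.16 without control 2, from -0.75 for ARL2, a small GTPase, to 0.57 for TBCE. Without control 2 ARL2 was at 0.26 and TBCE at 0.09, the lowest of the 6.

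Other parts of mitochondrial protein quality control had medians near 0 without control 2, where HSPD1 and HSPE1 had 0.53. The mitochondrial HSP70 list, whose genes do not all act in import, had a median log2 fold change of -0.15 over 7 genes. Without control 2 its median was 0.05. The values ran from -0.72 for HSCB (-0.19 without control 2) to 0.39 for TRAP1 (0.12 without it). Mitochondrial proteases had medians of 0.05 and 0.06 over 8 genes, from -0.42 for CLPP (0.10 without control 2) to 0.21 for CLPX (0.11 without it). Genes of mitochondrial protein import had medians of -0.34 and 0.01 over 11 genes, from -1.07 for PAM16 to 0.18 for TOMM70. PAM16 was at 1.90 ± 0.654 CPM in bile acid and 4.02 ± 2.59 CPM in control libraries. Without control 2 PAM16 was at -0.41 and TOMM70 at 0.13. None of these 3 lists had a member called by DESeq2 without control 2. Cytosolic heat shock genes had medians of 0.31 and 0.53 over 18 genes, from -0.28 for HSPB1, a small heat shock protein, to 0.81 for HSP90AA1, the inducible HSP90, and DESeq2 called 7 of the 18 higher and 0 lower without control 2. HSPB1 was then at 0.40 and HSP90AA1 at 1.07, with HSPA1A the highest of the list at 1.24. HSPA6, which is not in this list, had 3.06 (SE 0.54), and 3.11 without control 2, and was named after its values were seen. The difference between these lists and the chaperonins was not tested.

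**Figure D5:**
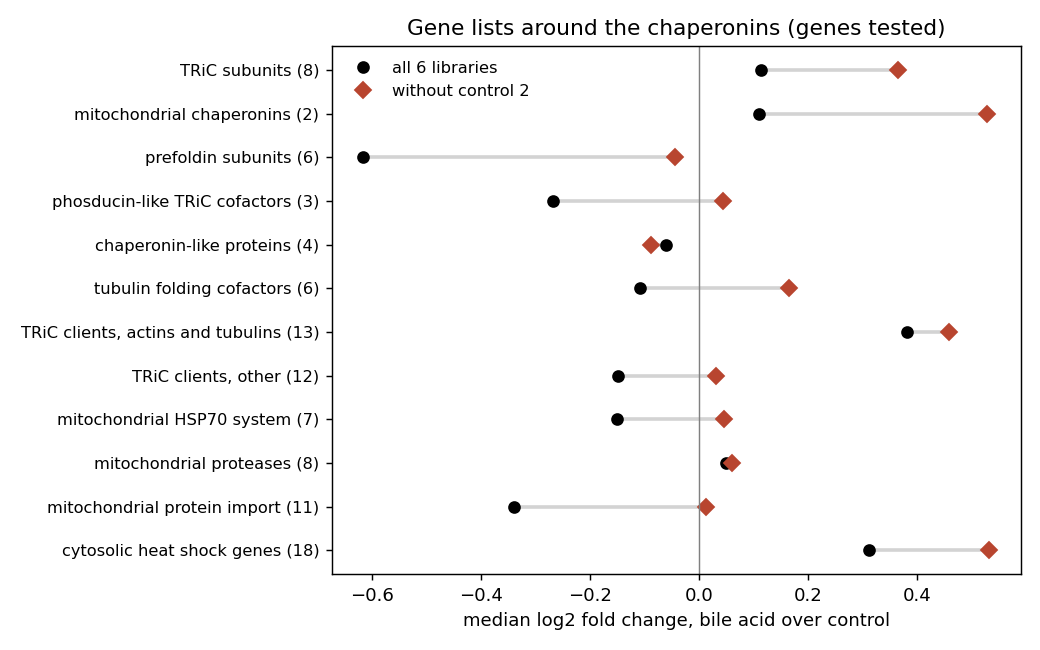
Median log2 fold change, bile acid over control (x axis), of the TRiC subunits, the mitochondrial chaperonins and 10 related gene lists, with the number of genes tested in brackets, for all 6 libraries (black) and without control library 2 (red). Without control 2 the TRiC subunits (0.36), the mitochondrial pair (0.53), the actins and tubulins (0.46) and the cytosolic heat shock genes (0.53) lie highest, and the other 8 lists lie between -0.09 and 0.16.

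Among the 12081 genes averaging 5 CPM or more, the profile over the 6 libraries most like that of the mean TRiC subunit belonged to CBX3, a heterochromatin protein (Pearson r = 0.998 of log2 CPM). ASF1B, a histone chaperone, and TSPAN15, a membrane protein, followed with r = 0.998 and r = 0.997. CBX3 measured 416, 438 and 471 CPM in bile acid libraries, against 325, 517 and 366 CPM in control libraries. The next 7 genes, with r from 0.982 to 0.991, were PPIA, the folding enzyme cyclophilin A, TIMP1, NFKBIA, OTUD1, the TRiC client TUBB, the HSP90 partner FKBP4 and GOT2. For the mitochondrial pair the 5 closest were ASF1B, FKBP4, PPIA, KRT81 and AC135050.6, with r from 0.986 to 0.991. All of these profiles share the high value of control 2, so the likeness is a description of 6 libraries of which 1 stands apart.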

How the data were processed

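RNA-seq of 6 libraries of Het1A cells, 3 bile acid and 3 control, was analysed at the level of genes. Per the submitters' processing notes, HISAT2 2.0.5, featureCounts, DESeq2 and GRCh38 were used, with no roles given. The authors deposited whole-number read counts per gene, FPKM values, normalized counts (a signal in which each library has been divided by its own size factor) and, per the file headers, a comparison with log2 fold changes, p-values and adjusted p-values. Reads recovered from the normalized counts were whole (within 0.001) for 100% of values and exceeded the count table by 3.84% to 4.20% per library. In edgeR they gave 0 calls and in DESeq2 19. Of the deposited FPKM group columns, 2 were not used. The gene coordinates equal those of GENCODE 29 for 99.98% of 58735 genes.

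The counts were tested with edgeR 4.0.16 (R 4.3.3) by quasi-likelihood F-test, with TMM factors, filterByExpr, no covariates and Benjamini-Hochberg adjusted p under 0.05. DESeq2 1.42.0 and limma 3.58.1 were alternatives. Standard errors are the log2 fold change over the root of F. The main fit was tested on simulated data in which no library stood apart, so that test does not cover the effect of control 2. Related lists were described by their highest and lowest member and their median. The members and lists were chosen with earlier results of these data known. Same-numbered libraries were compared by the correlation of their deviations from the group means, which was 0.31, 0.38 and 0.10 (across 17743 genes). Between libraries of different number it was -0.41 to 0.19. Bile acid libraries 1 and 2 were closest to the control of their own number, and library 3 to control 1 (0.14). The numbers were not taken to pair libraries in the main fit, and a replicate block was an alternative. Figures were drawn with matplotlib 3.10.9.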

Additional observations from a re-analysis of the deposited data

How the results depend on the processing

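TCP1, CCT2, CCT4, CCT5 and HSPD1 kept a positive log2 fold change under all 23 alternatives. Leaving out single libraries moved the count of called genes between 0 and 1, the TRiC median between 0.0055 and 0.36, and the median of HSPD1 and HSPE1 between -0.0821 and 0.53. The lower end of each median came without control 1 and the upper end without control 2. With 1 library left out, or control 2 and bile acid library 2 together, single genes ranged from -0.14 to 0.62 for CCT3, -0.0696 to 0.2423 for CCT6A, -0.40 to 0.34 for CCT7, -0.25 to 0.38 for CCT8 and -0.29 to 0.62 for HSPE1. DESeq2 called 19 genes, and 155 without control 2, with 1 member among them, CCT3. Its medians without control 2 were 0.36 for TRiC and 0.53 for the mitochondrial pair, and CCT7, CCT8 and HSPE1 stood at 0.34, 0.38 and 0.62. With the length trend also removed, edgeR without control 2 gave a TRiC median of 0.34 and values of 0.32, 0.36 and 0.59 for these genes. Without control 2 and bile acid library 2, edgeR called 149 genes and 0 of the 10, with a TRiC median of 0.34 and values of 0.33, 0.34 and 0.57, and the cause was not tested. These combinations and the recovered reads were chosen after seeing the data.

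CCT8 and HSPE1, both near 0, were also positive with all libraries under limma-voom (0.0166 and 0.15), scaling by library size (0.0178 and 0.0625), the length trend removed (0.028 and 0.23), log2(FPKM + 1) with and without the minimum mean (0.0012 and 0.0872) and log2(FPKM + 0.1) (0.0020 and 0.10). HSPE1 was so without the low-count filter (0.0169). With the replicate block they stood at 0.0274 and 0.13, and at 0.0849 and 0.29 with the length trend removed as well. The block gave 0 calls in edgeR, as without it, with 1109 genes at an unadjusted p under 0.05 against 588. Bile acid library 3 deviated most like control 1, not control 3, while libraries 1 and 2 deviated most like the control of their own number. With all libraries the 95% interval of HSPE1 ran from -0.98 to 0.90, so the data do not fix the direction or size of a change within that range.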
